A study of Mus musculus with 4 samples.

Results

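The red cell surface and the erythropoietin response were followed through 10 genes: Epor, Sphk1, Car1, Car2, Rhag, Rhd, Ermap, Icam4, Slc4a1 and Ank1. The genes were listed by name, and every probe set that the array annotation assigns to one of these 10 symbols was taken: 16 of the 45037 probe sets, and 10 of the 18193 named genes. Of the 16, 13 lay above the median mean level of all probe sets (a log2 intensity of 7.23), the filter used for counts and tests, and each of the 10 genes had at least 1 of these. A gene is given below by its brightest probe set, and its other probe sets stand beside it. The arrays held 4 groups of 1 sample each, sorted from mouse bone marrow. LSK cells (Lin-ckit+Sca1+) are the fraction of stem cells and multipotent progenitors, and MP cells (Lin-ckit+Sca1-) are myeloid progenitors, a mixture that holds the precursors of red cells, platelets, granulocytes and monocytes. WT mice were Smo flox/flox, Mx1Cre- and Smo-deficient mice were Smo flox/flox, Mx1Cre+. Smo encodes Smoothened, the membrane protein that passes on the hedgehog signal, and the Mx1 promoter answers to interferon in many cell types, so deletion is not limited to blood cells. Animals of both genotypes received the interferon inducer polyI:C, as 3 injections of 20 ug per g, 6 weeks before the marrow was collected. Cells of 4 mice of both sexes were pooled per genotype before the sort, so LSK and MP of a genotype come from the same pool, and no age of the mice is stated. The strain is labelled C57BL/6x129 for WT LSK, and its last number goes up by 1 from sample to sample, to 132, although only 2 pools were made.

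Red cells are made from progenitors that pass through erythropoietin-dependent stages while they build a membrane specialised for gas transport. Erythropoietin binds its receptor Epor, which signals through JAK2 and STAT5. The finished membrane carries the anion exchanger Slc4a1 (band 3) and the Rh complex, both tied by ankyrin to the spectrin skeleton, while the carbonic anhydrases Car1 and Car2 work inside the cell. Some of these genes are switched on early, in committed progenitors, and others mainly in later precursors filled with hemoglobin. GATA1 and KLF1 are the transcription factors best known for switching on erythroid genes.

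The letters upstream of the start site are shown for the genes whose window of 250 bases lay wholly outside the annotated gene, 3 of the 6 members that RefSeq's promoter table (GRCm38.p6) holds. Capitals mark words that resemble the sites of erythroid factors. The words for GATA factors were AGATAA and its variant AGATAG, together with TGATAA and its variant TGATAG. The others were CCNCNCCC, a GC-rich box of the kind bound by KLF factors, and TTCNNNGAA, the STAT5 word, and all were searched on both strands. Overlapping matches of a word were counted separately, and where they touch the capitals run together.
Epor, chr9:21963577-21963826, minus strand: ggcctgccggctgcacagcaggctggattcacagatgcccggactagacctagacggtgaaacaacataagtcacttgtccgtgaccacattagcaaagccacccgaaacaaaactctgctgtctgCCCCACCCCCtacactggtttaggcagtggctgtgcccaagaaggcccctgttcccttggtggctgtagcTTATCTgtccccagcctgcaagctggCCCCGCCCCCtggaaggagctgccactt
Icam4, chr9:21029182-21029431, plus strand: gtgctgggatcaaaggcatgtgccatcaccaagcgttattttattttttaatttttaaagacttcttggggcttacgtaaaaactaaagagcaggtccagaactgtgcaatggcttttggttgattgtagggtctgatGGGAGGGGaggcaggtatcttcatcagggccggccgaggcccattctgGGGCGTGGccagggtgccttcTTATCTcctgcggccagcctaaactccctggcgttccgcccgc
Rhd, chr4:134864286-134864535, plus strand: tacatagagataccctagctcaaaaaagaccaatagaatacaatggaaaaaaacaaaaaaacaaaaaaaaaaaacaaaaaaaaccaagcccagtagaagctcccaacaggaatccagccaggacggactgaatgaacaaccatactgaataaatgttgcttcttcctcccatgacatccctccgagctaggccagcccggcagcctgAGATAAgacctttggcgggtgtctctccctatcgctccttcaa

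Each of these 3 windows held 1 GATA word, which began 54 bases before the start of Epor and 43 bases before that of Icam4 and of Rhd. The GC-rich box matched 4 times in the Epor window, 2 times in that of Icam4 and not in that of Rhd. Ermap and Rhag, whose windows reach 18 and 50 bases into the annotated gene, each held 1 GATA word, 67 and 31 bases before the start, and no GC-rich box. Sphk1 has 5 listed starts, all inside its annotated span, and a GATA word lay in 2 of those windows. Counted by window, 7 of the members' 10 windows held a GATA word, and the windows of Sphk1 overlap in part. Among all 32851 windows of this length in the table, 26.5% held a GATA word, 45.9% a GC-rich box and 7.02% a STAT5 word, which among the members occurred only in windows of Sphk1. These are letters and not shown sites, and the arrays measured no binding.

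Every member was dimmer in LSK than in MP of the WT pool, and 9 of the 10 were so in the Smo-deficient pool, with Slc4a1 as the exception. The difference was tested with limma over all 22518 probe sets past the filter, with the pool as a block, two-sided, and p-values were adjusted by the Benjamini-Hochberg method. At an adjusted p under 0.05, 9 of the 10 genes were lower in LSK and 0 higher, where 7.54% of the 11904 genes past the filter were lower and 16.4% higher. The median difference of the 10 genes was -1.54 on the log2 scale, and that of all genes was 0.00. The pool is also the genotype, so the 2 pairs leave 1 residual degree of freedom before moderation, and the p-values measure how alike the 2 pools are, not the spread between mice. Without the block, 4 of the 10 genes passed (Sphk1, Ermap, Rhag and Rhd). In these bulk samples, fewer erythroid cells and less erythroid RNA per cell cannot be told apart.

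**Figure D1:**
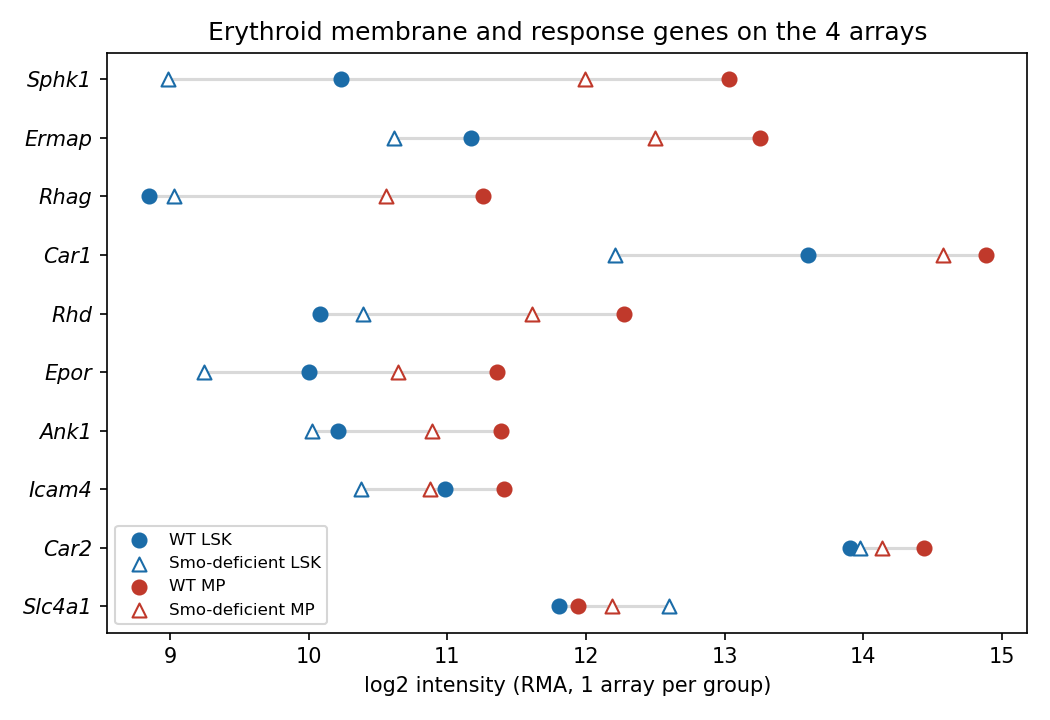
Log2 intensity of the 10 members (rows) on the 4 arrays (blue LSK, red MP, filled circles WT, open triangles Smo-deficient), ordered by the mean difference between LSK and MP. Positions are to be compared within a row only, since probe sets differ in brightness; Sphk1 spans the widest range, from 8.99 to 13.03, and Slc4a1 is the row in which Smo-deficient LSK lies highest.

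The receptor and a kinase of its response came first. On the linear scale, Epor (1423344_at) had an intensity of 1024 (WT) and 606 (Smo-deficient) in LSK, against 2627 and 1599 in MP. Both LSK arrays lay below both MP arrays, and in each population the Smo-deficient array was the lower one. On the log2 scale, used from here on, the mean difference between LSK and MP was -1.38 ± 0.11 (limma SE, adjusted p = 0.000575), and it was nearly the same in the WT pool (-1.36) and the Smo-deficient pool (-1.40). Loss of Smo went with a 1.69-fold lower value in LSK and a 1.64-fold lower one in MP.

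Sphk1 encodes sphingosine kinase 1, which makes the signalling lipid sphingosine 1-phosphate. Its probe set 1451596_a_at read 10.24 (WT) and 8.99 (Smo-deficient) in LSK, against 13.03 and 11.99 in MP. The populations were far apart, by -2.90 ± 0.11 (limma SE, adjusted p = 9.86e-05), which was the second most negative difference of the 11904 genes. The genotype difference had the same sign in both populations: the Smo-deficient array was lower by 2.38-fold in LSK and by 2.06-fold in MP. A dimmer Sphk1 probe set, 1420566_at, lay below the filter at 5.95, 6.23, 7.05 and 6.96 in the same order, lower in LSK but with genotype differences of 0.28 in LSK and -0.09 in MP.

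The carbonic anhydrases interconvert carbon dioxide and bicarbonate. Car1 read 13.60 (WT) and 12.21 (Smo-deficient) in LSK, against 14.88 and 14.58 in MP. The Smo-deficient LSK array stood apart from the other 3, and the genotype difference was -1.40 in LSK (2.63-fold lower) against -0.31 in MP. The difference between LSK and MP was therefore unequal in the pools, -1.28 in WT and -2.37 in Smo-deficient, with a mean of -1.83 ± 0.22 (limma SE, adjusted p = 0.00237).

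Car2 was the flattest of the 9 genes that passed, at 13.90 (WT) and 13.98 (Smo-deficient) in LSK, against 14.44 and 14.14 in MP. LSK was below MP in each pool, by -0.53 and -0.16, and the mean of -0.35 ± 0.08 (limma SE) had an adjusted p of 0.0302. That call was lost when limma was run without its trend on mean level (adjusted p = 0.117). Car1 and Car2 lie in 1 cluster of carbonic anhydrase genes, in the order Car13, Car1, Car3 and Car2 in RefSeq's annotation (GRCm38.p6). Car3, between them, went the other way and was higher in LSK by 0.73 ± 0.12 (limma SE, adjusted p = 0.00756), while Car13 differed by -0.01 without passing. Of the 7 other carbonic anhydrases past the filter 3 were higher in LSK (Car3, Car9 and Car12) and 0 lower, against Car1 and Car2, which were lower.

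Rhag and Rhd encode the 2 Rh proteins of the mouse red cell, which sit together in the membrane. Rhag read 8.85 (WT) and 9.03 (Smo-deficient) in LSK, against 11.26 and 10.56 in MP. Rhd read 10.08, 10.39, 12.28 and 11.61 on the same arrays. In both genes the LSK arrays lay well below the MP arrays, and the Smo-deficient array was slightly the higher one in LSK but the lower one in MP.

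The mean difference between LSK and MP was -1.97 ± 0.20 for Rhag (limma SE, adjusted p = 0.00145) and -1.71 ± 0.21 for Rhd (limma SE, adjusted p = 0.00283). For both it was larger in the WT pool (-2.41 and -2.19) than in the Smo-deficient pool (-1.53 and -1.22). With profiles centred on their mean over the 4 arrays, Rhag and Rhd were the closest of the 45 pairs of members, at a Euclidean distance of 0.28 (log2 units), against 0.52 for the next pair, Car2 and Icam4, and 3.49 for the farthest, Slc4a1 and Sphk1. Their relatives Rhbg and Rhcg, known from epithelia, differed between LSK and MP by -0.13 and -0.28 without passing.

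Ermap, a membrane protein that carries the Scianna blood group, read 11.17 (WT) and 10.61 (Smo-deficient) in LSK, against 13.25 and 12.50 in MP. LSK was below MP by -1.98 ± 0.09 (limma SE, adjusted p = 0.000141), by a similar amount in both pools (-2.08 and -1.88). Smo-deficient cells were 1.47-fold lower in LSK and 1.69-fold lower in MP.

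Icam4 encodes an adhesion molecule of red cells and their precursors. It read 10.98 (WT) and 10.37 (Smo-deficient) in LSK, against 11.41 and 10.87 in MP. Here the populations overlapped, since WT LSK lay above Smo-deficient MP, but within each pool LSK was the lower one (-0.42 and -0.50). The mean of -0.46 ± 0.10 (limma SE) passed with an adjusted p of 0.0223 and missed without the block (adjusted p = 0.360). Its neighbour on the chromosome, the leukocyte adhesion gene Icam1, went the other way, higher in LSK by 1.20 ± 0.11 (limma SE, adjusted p = 0.000938).

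Ank1, the red cell ankyrin, read 10.21 (WT) and 10.03 (Smo-deficient) in LSK, against 11.39 and 10.89 in MP on 1419421_at. Both LSK arrays lay below both MP arrays, with a mean difference of -1.02 ± 0.12 (limma SE, adjusted p = 0.00236). A second probe set, 1425677_a_at, differed by -1.09 ± 0.22 (limma SE, adjusted p = 0.0150), whereas 1443291_at differed by -0.20 without passing and 1452512_a_at was dim on every array, from 4.75 to 4.90. The genotype difference in MP was -0.49 and -0.65 on the first pair and 0.10 on 1443291_at, and in LSK it was -0.19 on 1419421_at but 0.32 on 1425677_a_at. The ankyrin gene Ank2 differed between LSK and MP by -0.23 without passing, and Ank3 was below the filter.

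Slc4a1 did not follow the others. It read 11.80 (WT) and 12.60 (Smo-deficient) in LSK, against 11.94 and 12.19 in MP on 1434502_x_at, a type of probe set that can pick up related transcripts. On 1416464_at it read 11.25, 12.08, 11.64 and 11.69. Smo-deficient LSK was the highest array on both. LSK was below MP in the WT pool (-0.14 and -0.39) and above it in the Smo-deficient pool (0.41 and 0.39), and neither probe set passed (adjusted p = 0.509 and 0.995, limma). The remaining probe set, 1431743_a_at, was dim on all arrays, from 6.10 to 6.16. Of 5 other Slc4 genes measured, none passed between LSK and MP with limma: Slc4a2, Slc4a3, Slc4a4 and Slc4a8 were tested with differences from -0.35 to 0.31, and Slc4a10 was below the filter.

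**Figure D2:**
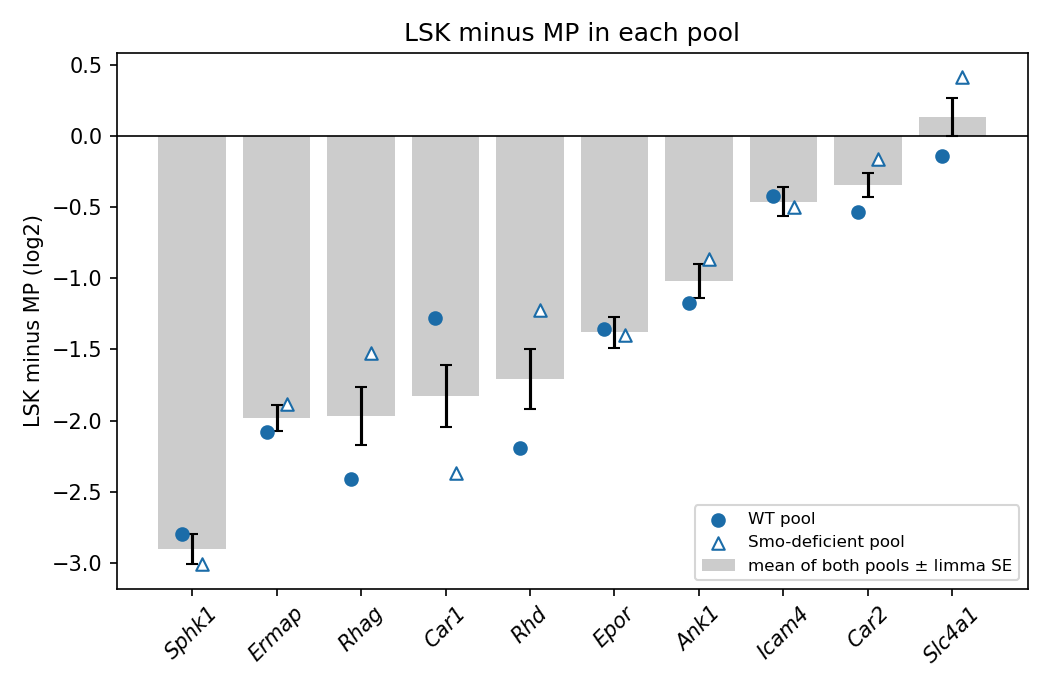
Log2 difference between LSK and MP for each member: grey bars are the mean of both pools with the limma SE, filled circles the WT pool and open triangles the Smo-deficient pool. The pools lie close together for Sphk1, Ermap, Epor and Icam4, apart for Rhag, Rhd and Car1 (-1.28 and -2.37), and on opposite sides of 0 for Slc4a1.

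Smo-deficient and WT cells were then set against each other within each population, where 1 array per genotype allows no test and the genotype cannot be told apart from the pool of mice. The targeted gene was lower on 2 of its 3 probe sets. The Smo probe set 1427049_s_at read 10.81 (WT) and 6.13 (Smo-deficient) in LSK, against 10.40 and 6.36 in MP. On 1427048_at the genotype difference was smaller, -3.05 in LSK and -1.78 in MP, and 1442215_at was dim throughout, from 4.39 to 4.70. Single differences are set beside the spread, a scaled median absolute deviation taken over probe sets of like level, which for the members ran from 0.12 to 0.26 and is no replicate error.

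In LSK, 2 of the 10 members were past 2-fold and lower without Smo, Car1 (-1.40) and Sphk1 (-1.25), where 0.26% of all genes past the filter were 2-fold lower and 0.689% higher. Counted from the most negative of the 11904 genes, they stood at 11 and 13. Epor (-0.76), Icam4 (-0.61) and Ermap (-0.56) were also lower by more than 2 spreads. Ank1 (-0.19), Car2 (0.07) and Rhag (0.18) lay within 1 spread of 0, Rhd was at 0.31, and Slc4a1 was higher at 0.80, about as far from 0 as Epor on the other side. Of the 10, 6 were below 0, where 53.2% of all genes were, and the median was -0.37, against -0.02 for all genes.

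In MP the members were more alike. Of the 10, 9 were lower in Smo-deficient cells, where 59.7% of all genes were, and the median was -0.60 against -0.05 for all genes. One member, Sphk1 (-1.04), was 2-fold lower, where 0.294% of all genes were 2-fold lower and 0.269% higher, and it was under 2-fold after quantile or cyclic loess normalization. Ermap (-0.76), Epor (-0.72), Rhag (-0.70), Rhd (-0.66), Icam4 (-0.53) and Ank1 (-0.49) followed, each by at least 2 spreads. Car1 (-0.31) and Car2 (-0.30) were lower by just over 2 spreads of these bright probe sets, and Slc4a1 was at 0.25. Hybridisation spikes, which are added to every sample in equal amount, were also lower on the Smo-deficient MP array than on the WT MP array, by a mean of -0.32 ± 0.11 (SD over 9 probe sets). Their part in the members' values was not tested. The median of the 10 genes in MP was -0.46 after quantile normalization and -0.48 after cyclic loess.

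**Figure D3:**
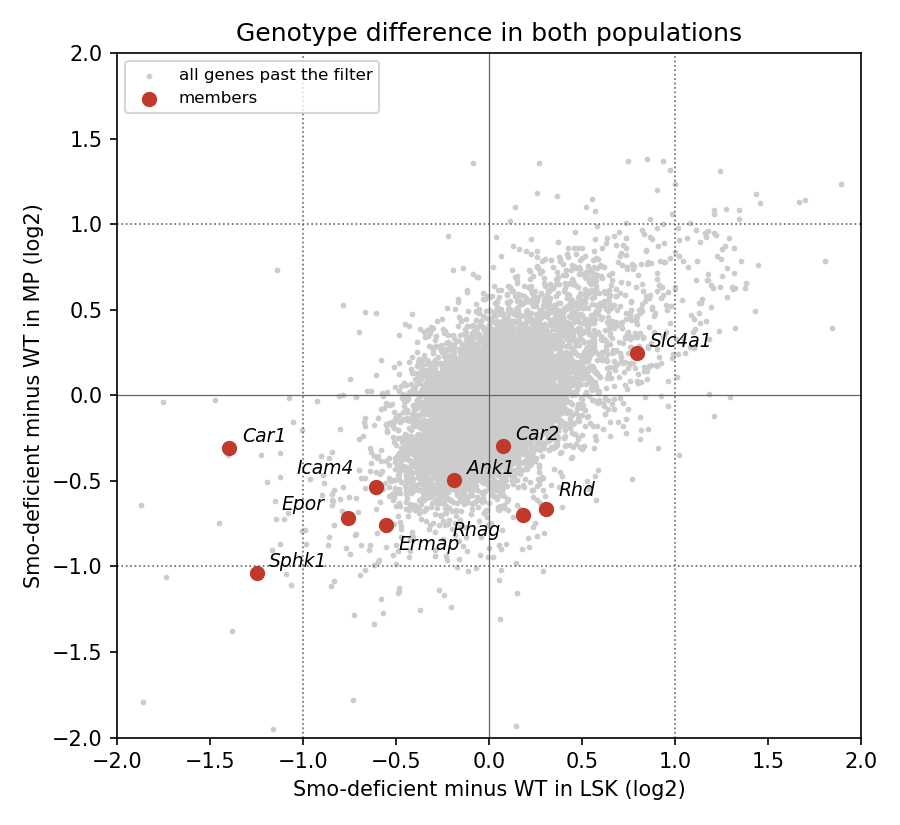
Log2 difference between Smo-deficient and WT cells in LSK (x axis) and MP (y axis) for the 10 members (red) and all genes past the filter (grey); dotted lines mark 2-fold, and 5 genes, among them Smo, lie beyond the axes. Sphk1, Epor, Ermap and Icam4 are lower in both populations, Rhd and Rhag are lower in MP and slightly higher in LSK, Car1 is lower mainly in LSK, and Slc4a1 is higher in LSK.

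By sign and size the genotype differences took several forms. Sphk1, Epor, Ermap and Icam4 were lower in both populations by like amounts, with a difference between LSK and MP of -0.21, -0.04, 0.20 and -0.07 in the same order. Rhd and Rhag were lower in MP alone, with the difference in LSK above that in MP by 0.97 and 0.88, ranks 38 and 61 from the most positive of the 11904 genes. Car1 was the opposite case, at -1.09, rank 12 from the most negative. Slc4a1 was higher in LSK on both bright probe sets, with 0.55 and 0.78 for LSK above MP. Ank1 (0.31) and Car2 (0.37) lay between these, with small differences in LSK. With 1 array a group these differences of differences could not be tested.

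Of 22 other tested genes of the red cell membrane and its skeleton, 6 were lower in LSK than in MP, 2 were higher and 14 did not pass. The water channel gene Aqp1 (-1.71 ± 0.12, limma SE, adjusted p = 0.000345), the Kell blood group gene Kel (-1.35), the transferrin receptor gene Tfrc (-1.30) and the stomatin gene Stom (-1.28) were the largest, and the glucose transporter gene Slc2a1 was higher in LSK (1.43). In MP, 17 of the 22 were below 0 by genotype, with a median of -0.31 and Aqp1 lowest at -0.91. In LSK 11 of the 22 were below 0, and their median was 0.03. The gene for band 4.2, Epb42, whose protein binds Slc4a1, was higher in Smo-deficient LSK by 0.81 and differed by -0.13 in MP, beside 0.80 and 0.25 for Slc4a1 on its brightest probe set and 0.83 and 0.05 on 1416464_at. The erythroid gene Trim10 was higher by 0.64 in LSK and at -0.03 in MP, and the urea transporter gene Slc14a1 was the lowest of the list in LSK at -0.85. None of the 22 reached 2-fold in either population.

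As a list, partners of Epor in signalling did not share its difference between LSK and MP. Of 23 tested genes of the erythropoietin pathway, many of which serve other cytokine receptors too, 10 were higher in LSK and 0 lower, with a median of 0.27. The largest differences were those of the feedback inhibitor genes Socs2 (2.84 ± 0.12, limma SE, adjusted p = 0.000111) and Socs3 (2.43), the sialomucin gene Podxl (1.99) and the feedback inhibitor gene Cish (1.26). Socs1, a feedback inhibitor too, differed by -0.19 without passing. The kinase and factors directly downstream, Jak2 (0.22), Stat5a (-0.06) and Stat5b (0.19), did not pass. By genotype the list had a median of 0.21 in LSK and 0.04 in MP. Podxl was lower in both populations, as Epor was, by -0.72 in LSK and -1.28 in MP. In MP it was the list's 1 gene past 2-fold.

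Genes that handle sphingosine 1-phosphate were split as well. Of 12 tested genes 3 were lower in LSK and 4 higher. The lipid phosphatase gene Plpp1 (-1.36 ± 0.22, limma SE, adjusted p = 0.00762) and Mfsd2b (-0.79), the exporter of sphingosine 1-phosphate in red cells and platelets, were lower with Sphk1. Spns2, the exporter known from endothelium, was higher (1.69), and the second kinase, Sphk2, differed by -0.34 without passing. Over all 14 measured genes the genotype differences had a median of 0.13 in LSK, where 10 were above 0, and -0.02 in MP, where 6 were. Mfsd2b was lower in both populations like Sphk1, by -0.83 in LSK and -0.56 in MP. Plpp1 was at 0.24 in LSK and -0.77 in MP.

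Among 12 transcription factors of the erythroid programme, 3 were lower in LSK than in MP (Klf1 at -1.69 ± 0.08, limma SE, adjusted p = 0.000141, Gata1 at -0.97 and Gfi1b at -0.69) and 4 were higher (Nfe2, Lmo2, Gata2 and Lyl1, from 0.37 to 0.65). By genotype the 12 factors had a median of -0.12 in LSK, where 5 were above 0, and -0.45 in MP, where 3 were. Gata1 differed by genotype by -0.79 in LSK and -0.54 in MP, and Klf1 by -0.69 and -0.49. Klf3 had opposite signs in LSK (0.57) and MP (-0.61), like Rhd and Rhag.

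**Figure D4:**
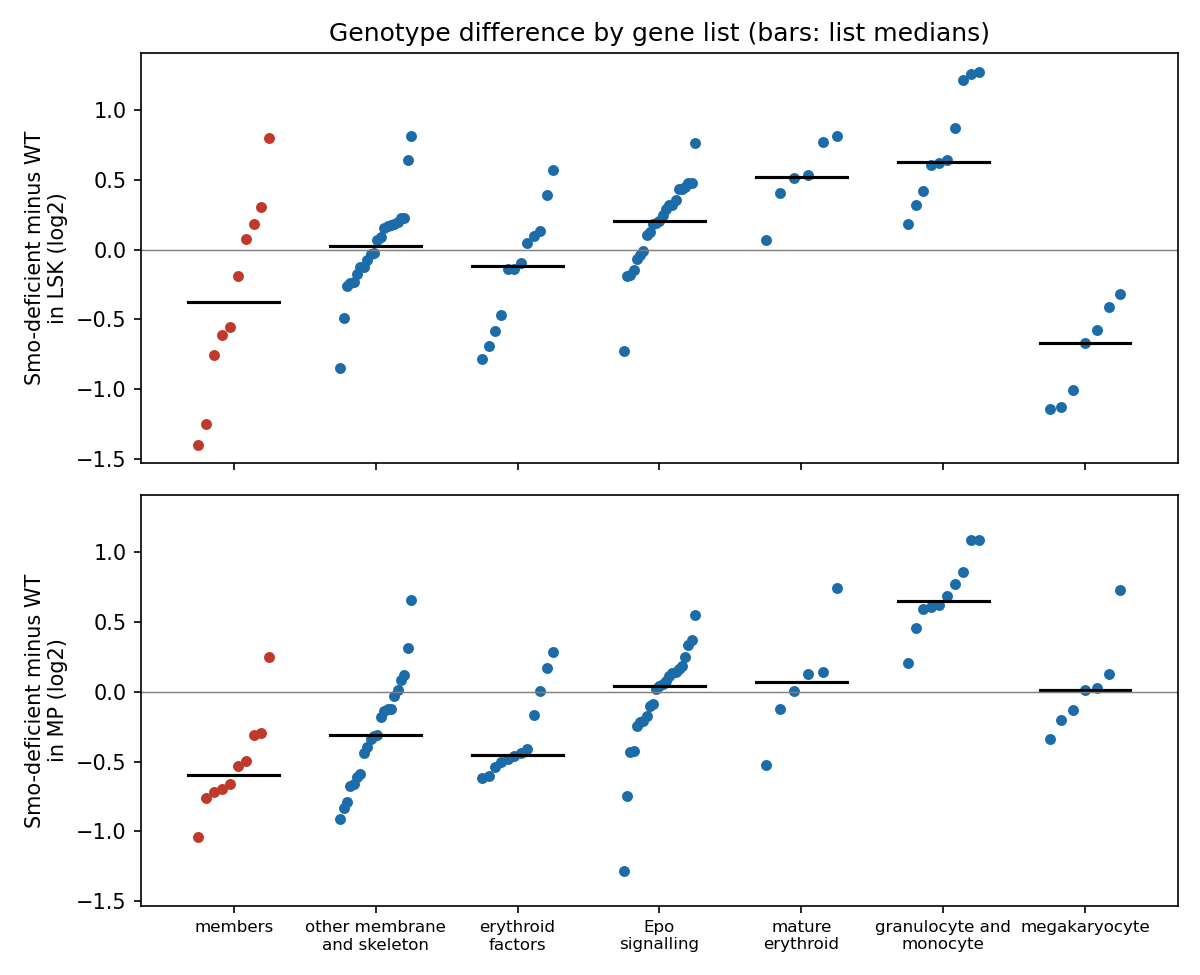
Log2 difference between Smo-deficient and WT cells in LSK (top) and MP (bottom); each point is 1 gene of the list named below, sorted within the list, and the black bar is the list's median. Granulocyte and monocyte genes lie above 0 in both panels, the members lie mostly below, and mature erythroid genes lie above 0 in LSK.

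Genes of other blood cells moved on the same arrays. All 10 measured genes of granulocyte and monocyte progenitors were higher in the Smo-deficient sample of both populations, with medians of 0.63 in LSK and 0.65 in MP, and their summed intensity went from 48580 to 68377 in LSK and from 85390 to 122531 in MP. Summed over the 10 members it went from 40626 to 33978 in LSK and from 89893 to 66988 in MP. A sum without Car1 was looked at after the values were seen. The other 9 went from 28180 to 29252 in LSK and from 59669 to 42551 in MP. Of these 9, Slc4a1 (3572 in WT and 6212 in Smo-deficient), Car2, Rhd and Rhag were higher in Smo-deficient LSK. Epor, Sphk1, Ermap, Icam4 and Ank1 were lower there. Megakaryocyte genes were lower in Smo-deficient LSK, all 7 of them, with a median of -0.67, but their median in MP was 0.01. All 8 neutrophil genes were higher in Smo-deficient cells of both populations (medians 0.82 and 0.20), and macrophage genes had medians of 0.63 and -0.19. Medians in LSK and MP were 0.67 and 0.31 for B cells and 0.07 and -0.01 for T and NK cells. They were 0.03 and 0.31 for mast cells and basophils and -0.16 and -0.01 for stroma and endothelium. Of the 7 stroma and endothelium genes 5 were below the filter, and 6 were lower in Smo-deficient LSK. The brightest of them, the collagen gene Col1a2, read 10.25 (WT) and 8.50 (Smo-deficient) in LSK, against 8.92 and 8.88 in MP. Its fall in LSK (-1.76) was the only one of the 7 past 2-fold. The 6 measured mature erythroid genes were all higher in Smo-deficient LSK, as Slc4a1 was, with a median of 0.52 (Hbb-b2 at 0.77, Alas2 at 0.53). In MP 4 of them were higher and 2 lower, with a median of 0.07 (Hbb-b2 at 0.74, Hba-a2 at -0.53). Their summed intensity was 6808 (WT) and 9868 (Smo-deficient) in LSK, against 6506 and 7609 in MP. Hba-a1 and Hba-a2 were below the filter on their single-gene probe sets, and probe sets assigned to several genes were not looked at. The part of these cells in the members' values was not tested.

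Of the genes behind the sort, Kit, which both fractions carry, differed between LSK and MP by 0.22 without passing, and the gene for Sca1 was not analysed here. Genes known from stem and multipotent cells but not used in the sort, Procr (3.78), Flt3 (1.39), Slamf1 (1.31) and Cd34 (1.06), were higher in LSK (adjusted p from 9.86e-05 to 0.00226, limma). By genotype in LSK, Procr (1.11) and Flt3 (1.21) were more than 2-fold higher in Smo-deficient cells, Slamf1 was at -0.51 and Cd34 at 0.41. In MP these genes were at 0.68, 0.95, 0.05 and 0.63 in the same order. Their part in the members' values was not tested. Array medians ran from 149.4 to 150.4 intensity units and correlations between arrays from 0.980 to 0.994 (Pearson, across probe sets, which are not independent). The log2 signal at the 3 prime end minus that at the 5 prime end was 1.55 (WT) and 1.53 (Smo-deficient) in LSK for Actb, against 1.34 and 1.31 in MP. For Gapdh it was 1.57 and 1.78 in LSK, against 1.59 and 1.60 in MP. Poly-A spikes, added to the RNA, differed between LSK and MP by 0.41 (WT pool) and 0.46 (Smo-deficient pool) and between Smo-deficient and WT by -0.20 in LSK and -0.25 in MP (means over 12 probe sets). Hybridisation spikes differed between LSK and MP by 0.05 and 0.52 in the same pools, and by genotype in LSK by 0.15. The part of these shifts in the members' values was not tested.

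The genes most like the members were sought among the 11894 other genes past the filter, by the Euclidean distance of centred log2 profiles over the 4 arrays to a profile of the 10 members. With the median of the members' levels on each array as that profile, the closest were the elongation factor gene Ell2 (distance 0.16), Lmcd1 (0.18), the glucosylceramide synthase gene Ugcg (0.19), Oaf (0.19) and the tetraspanin gene Tspan33 (0.22). This profile mixes probe sets of unequal brightness, and its genotype differences of -0.23 in LSK and -0.31 in MP are smaller than the members' medians. With each member centred before the median was taken, a choice made after the data were seen, they were -0.42 and -0.63, and the closest genes were the transferrin receptor gene Tfrc (0.12), Ugcg (0.12), the syntaxin gene Stx2 (0.17), Kel (0.18) and Rgs9bp (0.19). The 2 sets share 1 gene, Ugcg. Tfrc read 11.95 (WT) and 11.68 (Smo-deficient) in LSK, against 13.41 and 12.82 in MP. The brightest probe sets of Epor, Ermap, Sphk1, Car1 and Ank1 had the same order of arrays.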

How the data were processed

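Expression was read from 1 table of 4 Affymetrix arrays. The authors used RMA, per the submitters' processing notes, with no version given in the sources used here, and the intensity values they deposited run from 12.3 to 44290.5, so they were taken as linear and log2 was computed without a pseudocount. RMA is meant to draw arrays to a common distribution and can remove a shift shared by most genes. The deposited arrays still differed in upper quartile. It was 593.1 (WT LSK), 611.6 (Smo-deficient LSK), 566.0 (WT MP) and 545.0 (Smo-deficient MP) intensity units. Per the labels, 20 ng of total RNA per sample was amplified in 2 cycles. The 64 control probe sets were set aside. Probe sets were named by the platform annotation, with symbols updated through RefSeq identifiers, and those with several genes were not used. A gene was represented by its single-gene probe set of highest mean. LSK was tested against MP with limma 3.58.1 in R 4.3.3 (lmFit and eBayes with trend, pool as a block) over all 22518 probe sets with a mean above the 50th percentile, and adjusted p-values under 0.05 passed. The fit was checked on simulated data. Differences between genotypes had 1 array a side, so they were called at 2-fold without a test. The number of arrays limits the precision. Named were all members, up to 4 genes per list by size among those past a threshold, list extremes, the 5 nearest profiles and Smo; Epb42, Trim10, Klf3, Car13, the neighbours of members, relatives, direct partners (Jak2, Stat5a, Stat5b, Sphk2, Mfsd2b), markers given as examples and the factors listed as passing were named after their values were seen. Members and gene lists were chosen with earlier results of these data known, so no list is independent evidence. Tools for tables and figures were Python 3.11.15, pandas 2.3.3, numpy 2.4.6 and matplotlib 3.10.9.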

Additional observations from a re-analysis of the deposited data

Results flagged for a closer look

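For 4 members a difference had opposite signs in the 2 populations or pools, and none of these contrasts was tested. The genotype difference was positive in LSK and negative in MP for Rhd (0.97 between them), Rhag (0.88) and Car2 (0.37), the last from a difference in LSK of 0.07 that lies within 1 spread of 0. For Slc4a1, LSK was below MP in the WT pool and above it in the Smo-deficient pool, 0.55 apart. No group held enough samples to look for a sample far from the others.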

How the results depend on the processing

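The count of 9 members lower in LSK than MP held after quantile normalization, cyclic loess, no filter, a filter at the 60th percentile and 32 added before log2. It also held by a majority of each gene's probe sets past the filter, and it was 8 with limma run without its trend. Without the pool as a block it was 4, and the probe sets that passed went from 5013 to 1058. Adjusted p-values over all fits ran up to 0.0714 for Car1, 0.0785 for Epor and 0.0527 for Ank1. By sign alone 10 members were lower in LSK of WT mice and 9 in LSK of Smo-deficient mice. Members called lower by genotype in LSK went from 2 to 4 at 1.5-fold and 0 at 3-fold; in MP from 1 to 5 at 1.5-fold and 0 at 3-fold, and to 0 after quantile normalization and after cyclic loess, where Sphk1 no longer reached 2-fold. The members' median in LSK ran from -0.39 to -0.27 and in MP from -0.60 to -0.46 over the alternatives. Of all probe sets that passed, 67.7% were higher in LSK, 53.7% after quantile normalization and 63.7% after cyclic loess. No called difference of a member turned its sign. Added after the data were seen, leaving out Car1 turned the ratio of the members' summed intensity, Smo-deficient over WT in LSK, from 0.836 to 1.04, and centring the members before their median was taken kept 1 of the 5 nearest genes. Probe sets under the filter have differences that depend on the background.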
